A study of Rattus norvegicus with 119 samples.

Results

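The genes described here mark steps in the making of new neurons in the adult hippocampus. The list held 9 genes: Sox2 and Nes for neural stem and progenitor cells, Mki67 and Top2a for dividing cells, Eomes, Neurod1, Sox11 and Dcx for neuronal progenitors and immature neurons, and Igfbpl1, which is also expressed by immature neurons. A gene was measured where the platform annotation gave a probe set its symbol and no other. That left 7 of the 9 genes, each with 1 probe set, among the 14506 genes named in this way and 29214 probe sets on the array: Sox2, Nes, Top2a, Neurod1, Sox11, Dcx and Igfbpl1. Eomes shared its only probe set with Golga4, and Mki67 is not named by the annotation used here.

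RNA came from the hippocampus of 40 Fischer, 40 Long Evans and 39 Sprague Dawley rats, collected on postnatal day 55, and each rat had an array of its own. Both sexes ate control food, or food that carried lead acetate at 250 or 750 ppm. In the perinatal arm the dams ate lead food from 10 days before breeding to weaning, and in the postnatal arm lead food was given from birth to day 45. Crossing strain and sex with these exposures gave 30 groups of 4 rats, except the Sprague Dawley male controls with 3. Every exposed rat had been back on control food before collection, and litters are not given in the labels, so rats were treated as independent.

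In the dentate gyrus, stem cells of radial glial form divide slowly and give rise to progenitors that divide fast. These become neuroblasts and then immature granule neurons, most of which die before the survivors join the granule cell layer. Sox2 is a transcription factor that keeps stem cells undifferentiated and is also made by astrocytes. Nestin, from Nes, is an intermediate filament protein of progenitors and of some vessel cells. Topoisomerase IIα, from Top2a, untangles DNA during replication and mitosis. Neurod1 is a basic helix-loop-helix factor needed for granule neurons to form and survive, and it stays on in mature granule neurons. Sox11 is a transcription factor of immature neurons, and doublecortin, from Dcx, binds the microtubules of migrating neuroblasts. Igfbpl1 belongs to the family of insulin-like growth factor binding proteins. The tissue was whole hippocampus, so fewer cells of a type and less RNA per cell cannot be told apart.

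Promoter sequences are shown for the genes on which the results below turn: Neurod1, which differed most clearly between strains, Dcx and Sox2, which differed in opposite directions between sets of Fischer arrays, and Top2a as the measured proliferation gene. Each is the 250 bases before the annotated start of the gene in RefSeq, assembly GRCr8, on the strand of the gene and from 5′ to 3′. Neurod1 lies at chr3:84770455-84770704, minus strand, Dcx at chrX:112304162-112304411, minus strand, Sox2 at chr2:119464881-119465130, plus strand, and Top2a at chr10:84473094-84473343, minus strand. Capitals mark the E-box CANNTG in Neurod1 and Sox2, the SOX motif ACAAAG in Dcx, and CCAAT boxes (read as ATTGG) and cell cycle homology elements in Top2a. Other matches in these windows, given below, are left in lower case.
Neurod1: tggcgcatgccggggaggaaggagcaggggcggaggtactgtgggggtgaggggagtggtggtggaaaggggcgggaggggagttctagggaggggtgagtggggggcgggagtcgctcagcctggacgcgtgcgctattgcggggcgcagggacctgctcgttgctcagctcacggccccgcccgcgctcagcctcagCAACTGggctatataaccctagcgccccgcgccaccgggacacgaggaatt
Dcx: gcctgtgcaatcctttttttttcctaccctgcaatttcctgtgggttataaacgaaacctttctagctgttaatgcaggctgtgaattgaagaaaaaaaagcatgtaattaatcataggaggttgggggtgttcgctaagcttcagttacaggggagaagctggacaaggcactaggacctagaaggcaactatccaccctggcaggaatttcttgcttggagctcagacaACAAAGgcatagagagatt
Sox2: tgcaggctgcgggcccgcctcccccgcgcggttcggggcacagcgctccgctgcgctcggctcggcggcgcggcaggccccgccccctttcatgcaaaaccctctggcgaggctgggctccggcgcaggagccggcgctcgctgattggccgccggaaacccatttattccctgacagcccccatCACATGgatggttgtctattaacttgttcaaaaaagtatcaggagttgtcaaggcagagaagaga
Top2a: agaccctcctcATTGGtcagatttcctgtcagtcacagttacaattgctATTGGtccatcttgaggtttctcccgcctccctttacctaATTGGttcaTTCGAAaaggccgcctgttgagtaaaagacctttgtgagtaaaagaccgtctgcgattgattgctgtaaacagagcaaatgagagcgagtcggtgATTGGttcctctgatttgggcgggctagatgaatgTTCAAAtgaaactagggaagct

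Motifs were searched on both strands. An E-box, the core bound by basic helix-loop-helix factors, stood in 65.5% of the 33469 promoter windows of this length. The Neurod1 window held 1 E-box, CAACTG, ending 46 bases before the start, and the Sox2 window held 1, CACATG, ending 60 bases before it. The form CAGATG stood in 14% of windows and CAGCTG in 12%, and neither was found in these 4 windows. A SOX motif, ACAAAG or ACAATG, stood in 25.3% of windows. Dcx held 1 of them, 14 bases before its start, and no E-box. Top2a also held 1 SOX motif, read as CTTTGT, at 117 bases, and 3 E-boxes, at 204, 72 and 15 bases. A CCAAT box stood in 34% of windows and a cell cycle homology element, TTTGAA or TTCGAA, in 17.4%. The Top2a window held 4 CCAAT boxes, at 235, 197, 157 and 53 bases before the start, and 2 homology elements, at 147 and 17 bases. The Sox2 window held 1 of each, at 102 and 34 bases, and those of Neurod1 and Dcx held neither. The GC content was 69.2% for Neurod1, 44.0% for Dcx, 64.4% for Sox2 and 45.6% for Top2a, and the median window had 51.2%. These matches describe letters in a window and were not set against the expression values.

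Values were log2 levels from 2.293 to 14.18 over all probe sets, with array medians from 7.355 to 7.566, and the number of arrays limited the precision. On 8 arrays, 3 of Long Evans and 5 of Sprague Dawley, X-linked genes (Eif2s3, and Ddx3x with Pbdc1) went against the sex in the label. They lay on the other sex's side of the midpoint between male and female medians, within strain and the sets defined below. No Y-linked gene was used. Within each group the labels carry successive numbers, except that the Sprague Dawley male controls skip a number. The rats were parted into those with the lower and those with the upper numbers of their group, called label-number sets here. The skipped number was treated as the place of a missing rat with a lower number. The labels do not say what the numbers mark. Groups and strains had their own numbers. Differences between groups, by strain, lead exposure or sex, thus cannot be told apart from anything else that went with those numbers.

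Of the 7 genes Dcx had the smallest range over groups, with the 30 group means lying between 9.36 and 9.52 and a median SD within groups of 0.08. The Fischer female controls had the lowest Dcx mean, 9.36 ± 0.09 (SD, n = 4), and the Sprague Dawley males at postnatal 750 ppm had the highest, 9.52 ± 0.07 (SD, n = 4). The range of group means was 9.30 to 9.63 for Sox2, 6.58 to 6.90 for Nes and 6.07 to 6.38 for Top2a. For Neurod1 it was 10.06 to 10.49, for Sox11 8.72 to 9.14 and for Igfbpl1 6.95 to 7.58. Igfbpl1 also had the widest spread within groups, with a median SD of 0.24. Its SD over all arrays was 0.29, and 91.1% of probe sets had a lower SD. The other 6 genes had SDs from 0.11 to 0.18. Placed among all probe sets, the mean of Neurod1 was above 88.3% of them, while the means of Nes and Top2a were above 38.1% and 30.2%.

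**Figure D1:**
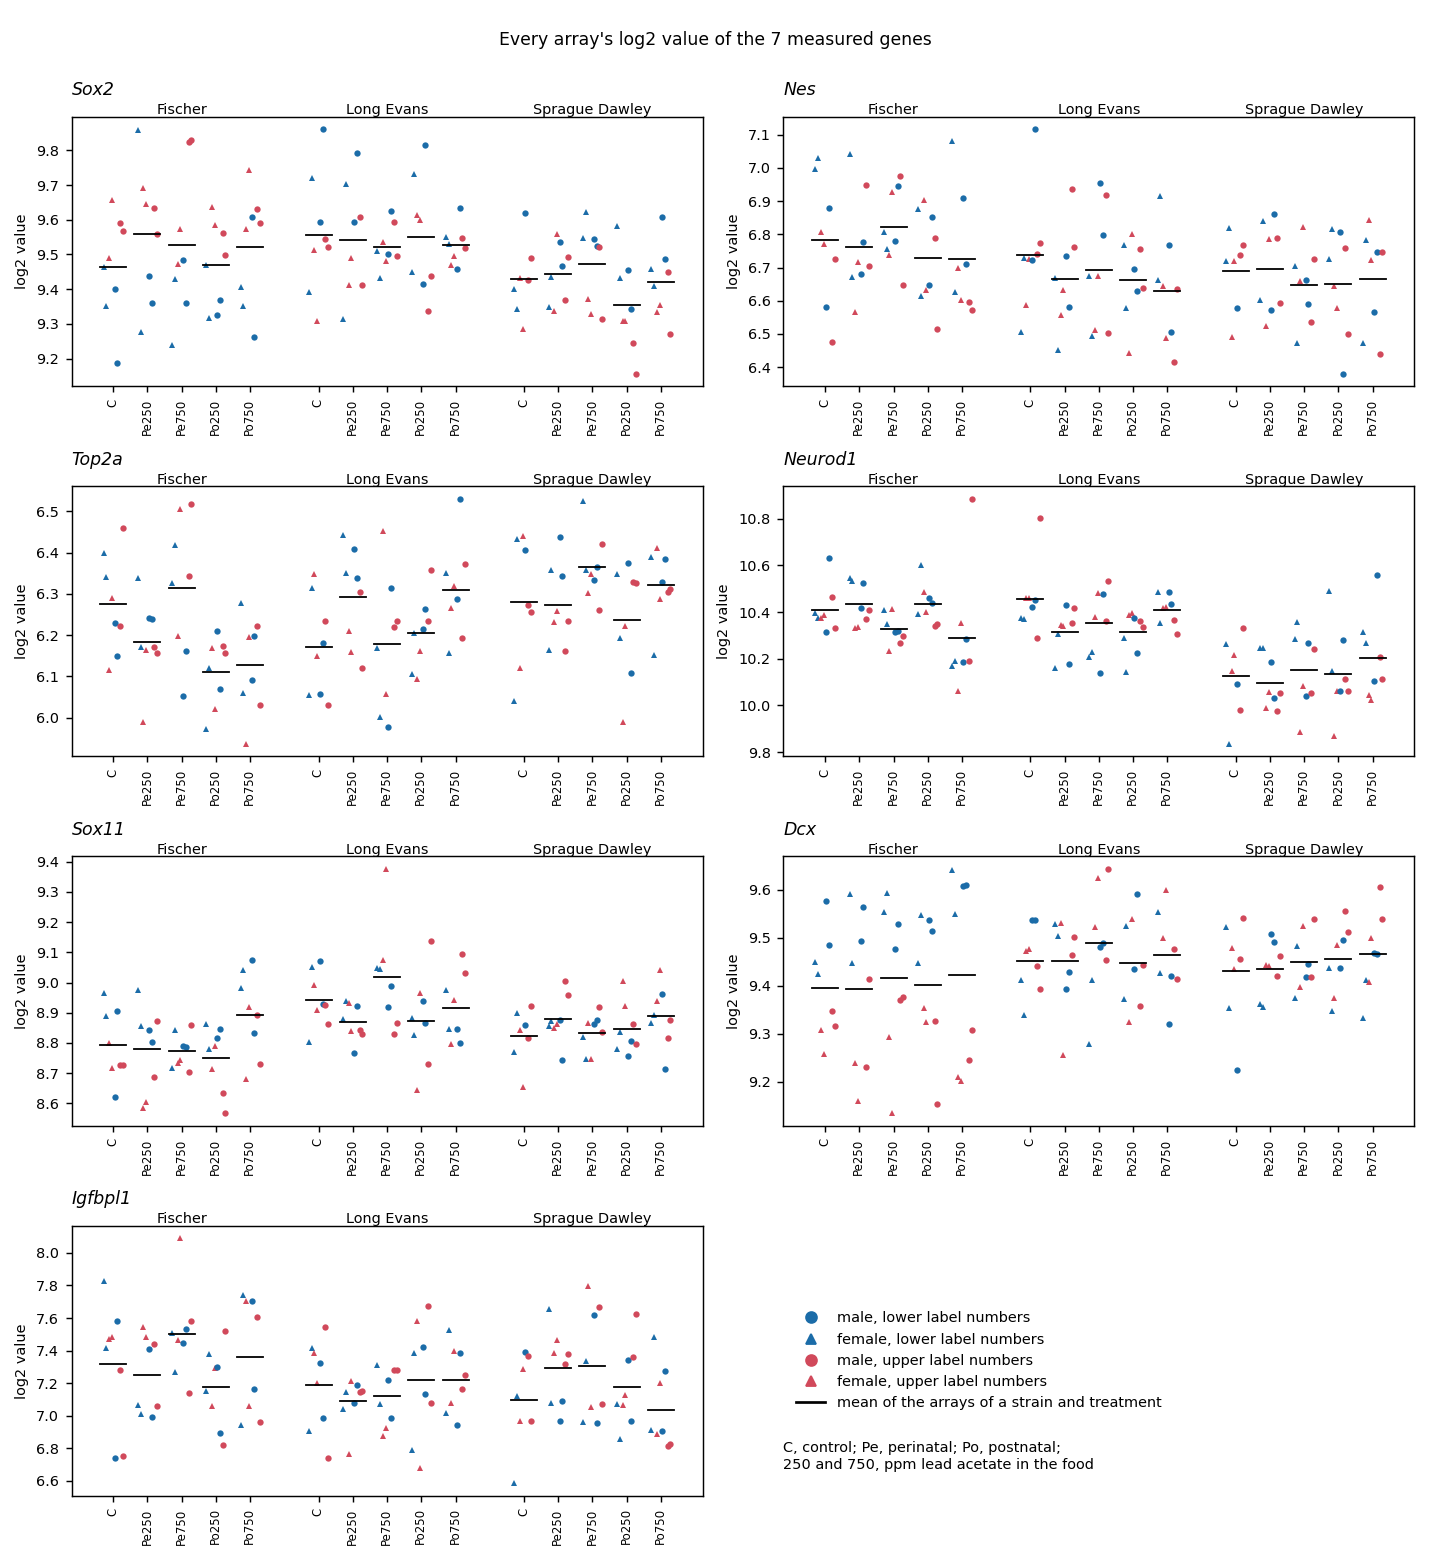
Log2 values of every array for the 7 measured genes, by strain and treatment (C, control; Pe, perinatal; Po, postnatal; 250 and 750, ppm lead acetate in food). Points are arrays, shaped by sex and coloured by label-number set, and bars are means of a strain and treatment. Neurod1 is lower in Sprague Dawley, and the Dcx points of Fischer separate by label-number set.

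The first question was whether developmental lead left a difference in these genes at day 55. It was asked as the mean of the 8 exposed groups of a strain minus the controls of the same sex. None of the 7 genes passed the test in any strain. Of these 21 differences, 0 were called at an adjusted p under 0.05 (limma, Benjamini-Hochberg over all probe sets) and 1 had an unadjusted p under 0.05. Over all probe sets 0% were called in Fischer, 0.212% in Long Evans and 0.0171% in Sprague Dawley. The differences ran from -0.11 to 0.09, and their 95% intervals reached from -0.23 to 0.31.

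Among the stem cell genes, Sox2 had a difference of 0.05 ± 0.07 (SE) in Fischer, -0.02 ± 0.05 in Long Evans and -0.02 ± 0.05 in Sprague Dawley. Nes had -0.02 ± 0.06, -0.07 ± 0.06 and -0.03 ± 0.06 in the same order. For Top2a the values were -0.09 ± 0.05 in Fischer, 0.07 ± 0.05 in Long Evans and 0.01 ± 0.05 in Sprague Dawley. The proliferation gene thus had estimates of opposite sign in Fischer and Long Evans. The test of that difference, Long Evans minus Fischer, gave 0.17 ± 0.07, with an unadjusted p under 0.05 but an adjusted p of 0.9044 (limma).

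Neurod1 had the lead difference nearest to a call, in Long Evans. Its exposed minus control value there was -0.11 ± 0.05 (95% interval -0.20 to -0.01, adjusted p = 0.6053, limma). In Fischer it was -0.04 ± 0.05 and in Sprague Dawley 0.02 ± 0.07. Sox11 had 0.01 ± 0.05, -0.02 ± 0.05 and 0.03 ± 0.03 in Fischer, Long Evans and Sprague Dawley. Dcx, the marker most used for immature neurons, had 0.01 ± 0.06, 0.01 ± 0.04 and 0.02 ± 0.03. The Fischer interval for Dcx was -0.12 to 0.14, so a shift beyond those bounds lay outside the 95% interval. Igfbpl1 had 0.00 ± 0.12, -0.03 ± 0.10 and 0.09 ± 0.11, the widest errors of the 7 genes. Strain differences of the lead effect were called for 0 of 21 values (1 unadjusted, limma). Over all probe sets 0.13% were called for Long Evans minus Fischer, 0.0103% for Sprague Dawley minus Fischer and 0.0787% for Sprague Dawley minus Long Evans.

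**Figure D2:**
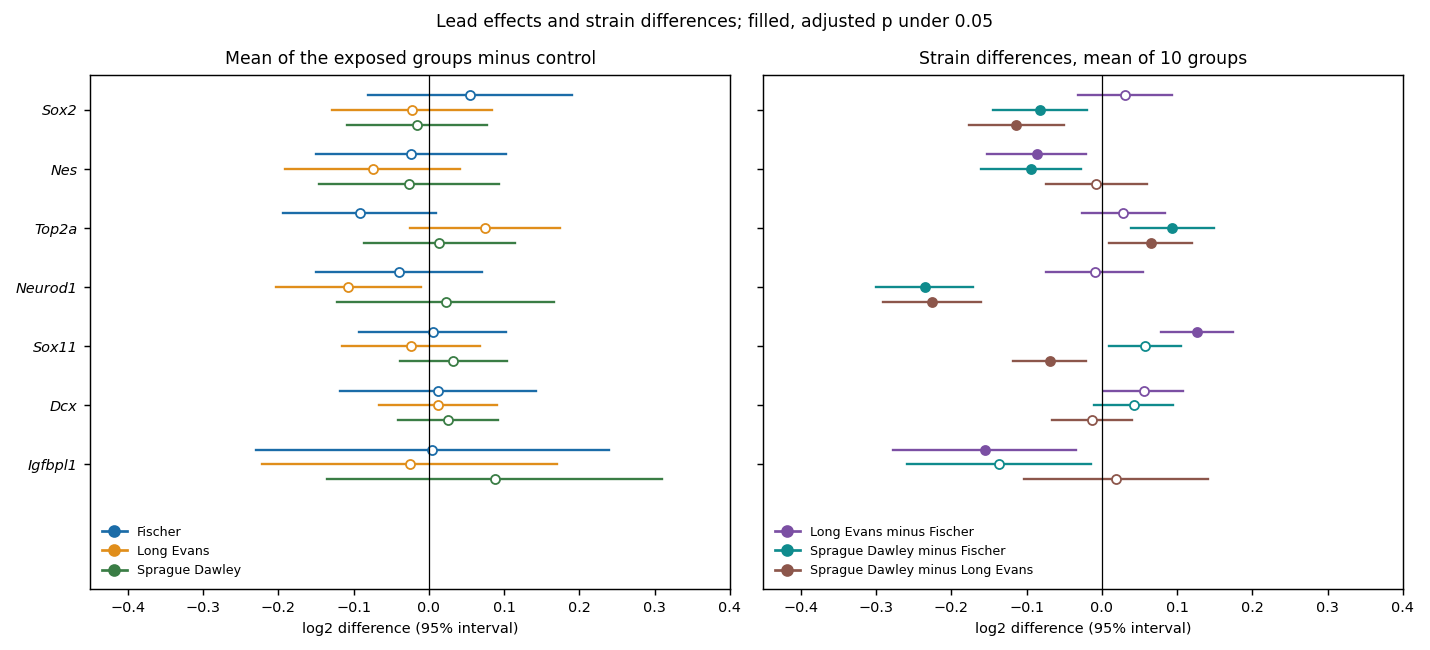
Log2 differences with 95% intervals for the 7 genes: the mean of the exposed groups minus control within each strain (left) and pairs of strains averaged over 10 groups (right). Filled points have an adjusted p under 0.05. No lead difference is filled, and the Neurod1 differences of Sprague Dawley from both other strains lie farthest from 0.

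Each period and dose was then set against the controls of its strain, averaged over the sexes. The 4 exposures of a strain share their controls. Of 84 values 0 were called and 5 had an unadjusted p under 0.05 (limma), beside 0.0648% called over all probe sets. Top2a and Neurod1 held all 5. Top2a in Fischer controls was 6.23, 6.15, 6.22 and 6.46 in males and 6.40, 6.34, 6.11 and 6.29 in females. At postnatal 250 ppm it was 6.21, 6.07, 6.17 and 6.16 in males and 5.97, 6.12, 6.17 and 6.02 in females. All 8 exposed values lay under 6 of the 8 controls, and the groups overlap through the controls at 6.15 and 6.11.

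The Top2a difference was -0.16 ± 0.06 (SE) at postnatal 250 ppm and -0.15 ± 0.06 at postnatal 750 ppm in Fischer. In Long Evans at postnatal 750 ppm it was 0.14 ± 0.06, with means of 6.31 ± 0.12 and 6.17 ± 0.12 (SD, n = 8 each) in exposed and control rats. Neurod1 differed by -0.14 ± 0.06 at perinatal 250 ppm and by the same amount at postnatal 250 ppm in Long Evans. The lowest adjusted p among the 84 was 0.4817 (limma). Dcx stayed within -0.003 and 0.04 of control in all 12 exposures, positive in 9 of them. Nes was positive in 2 of 12, between -0.11 and 0.04. Sox11 lay between -0.07 and 0.10, Sox2 between -0.08 and 0.09 and Igfbpl1 between -0.14 and 0.19.

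Taken by sex, the 24 exposed groups against controls of the same strain and sex gave 0 calls of 168 (7 unadjusted, limma), beside 0.0175% over all probe sets. The values ran from -0.33 to 0.41. Nes in Long Evans males at postnatal 750 ppm had -0.26 ± 0.10 (SE) and the lowest adjusted p, 0.4317 (limma). Top2a in that group had 0.22 ± 0.09, and in Fischer females at postnatal 250 ppm -0.22 ± 0.09. The sexes themselves, averaged over treatments, gave 0 calls of 21 (1 unadjusted, limma). Over all probe sets 0.0822%, 0.0856% and 0.0171% differed by sex in Fischer, Long Evans and Sprague Dawley. Nes in Long Evans had the lowest adjusted p, with females lower than males by -0.10 ± 0.05 (adjusted p = 0.2526, limma).

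Dose and period were compared within the exposed rats, with 0 of 21 called in each (4 and 2 unadjusted, limma). The shares over all probe sets were 0.0434% for dose and 0.0365% for period. Neurod1 in Fischer at 750 minus 250 ppm was -0.13 ± 0.05 (SE, adjusted p = 0.7732). Its means were 10.43 ± 0.09 at perinatal 250, 10.43 ± 0.09 at postnatal 250, 10.33 ± 0.06 at perinatal 750 and 10.29 ± 0.26 (SD, n = 8) at postnatal 750 ppm. The large SD of the last group came with 1 male, replicate 4, at 10.89. Without it the dose difference was -0.17 ± 0.03 and passed the test (adjusted p = 0.0374, limma), the only call that leaving out an animal added to the dose contrasts. As the highest value of a 750 ppm group, its loss had to make the difference more negative, so no dose effect is read from that call. Sox11 in Long Evans had 0.10 ± 0.04 for dose (adjusted p = 0.5975), and Igfbpl1 in Fischer 0.22 ± 0.10. For postnatal minus perinatal, Top2a in Fischer had -0.13 ± 0.04 (adjusted p = 0.8496) and Igfbpl1 in Sprague Dawley -0.19 ± 0.09.

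Strains differed where lead groups did not pass the test. Neurod1 was lower in Sprague Dawley than in both other strains, already in controls. Fischer male controls had 10.32, 10.63, 10.46 and 10.33, and Fischer females 10.40, 10.38, 10.38 and 10.39. Long Evans males had 10.42, 10.45, 10.29 and 10.81, and females 10.38, 10.37, 10.46 and 10.46. Sprague Dawley males had 10.09, 9.98 and 10.33, and females 10.26, 9.84, 10.15 and 10.22. All but 1 of the 7 Sprague Dawley controls lay under every control of the other strains, and the exception, a male at 10.33, overlapped with their lowest values. The mean was 10.41 ± 0.10 (SD, n = 8) in Fischer, 10.45 ± 0.15 (n = 8) in Long Evans and 10.12 ± 0.17 (n = 7) in Sprague Dawley.

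In controls, Neurod1 was lower in Sprague Dawley by -0.28 ± 0.08 (SE, adjusted p = 0.0058, limma) against Fischer and by -0.33 ± 0.08 (adjusted p = 5.24e-04) against Long Evans. Sox11 was higher in Long Evans than in Fischer controls by 0.15 ± 0.05 (adjusted p = 0.0302). These were 3 calls of 21, 1 in each pair of strains. Over all probe sets 25.1% were called for Long Evans minus Fischer, 10.5% for Sprague Dawley minus Fischer and 24.5% for Sprague Dawley minus Long Evans, so a call in 1 of 7 members is not above the background in the first and last pair. The Sox11 call was lost on leaving out any of 8 controls: Fischer males 1, 3 and 4, Fischer females 3 and 4, Long Evans male 1, or Long Evans females 2 and 3 (highest adjusted p = 0.0852). The Neurod1 calls were kept without each of the 23 controls in turn, with highest adjusted p-values of 0.0382 and 0.0055. Without the 8 arrays that went against their sex label the Neurod1 differences were -0.24 (adjusted p = 0.0236) and -0.23 (0.0476).

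Averaged over the 10 groups of each strain, 11 of 21 values passed. The 7 genes gave 3 calls for Long Evans minus Fischer, where 61.2% of all probe sets were called, 4 for Sprague Dawley minus Fischer, where 40.7% were, and 4 for Sprague Dawley minus Long Evans, where 62.2% were. The share of members called lay below that of all probe sets in the pairs with Long Evans and above it in Sprague Dawley minus Fischer, and with 7 genes nothing particular to them is read from it. The arrays include the controls just described, so these values are no independent repeat of them.

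Among neuronal lineage genes, Neurod1 ran from 10.06 to 10.89 in Fischer with a median of 10.37, from 10.14 to 10.81 in Long Evans with a median of 10.37, and from 9.84 to 10.56 in Sprague Dawley with a median of 10.11. Its difference was -0.24 ± 0.03 (SE) against Fischer (adjusted p = 2.29e-09, limma) and -0.23 ± 0.03 against Long Evans (3.81e-09). Fischer and Long Evans did not pass against each other, at -0.01 ± 0.03. Sox11 was highest in Long Evans, at 8.92 ± 0.13 (SD, n = 40), then Sprague Dawley, at 8.85 ± 0.08 (n = 39), and Fischer, at 8.80 ± 0.12 (n = 40). Long Evans exceeded Fischer by 0.13 ± 0.02 (adjusted p = 3.44e-06) and Sprague Dawley was below Long Evans by -0.07 ± 0.02 (0.0097). The neighbours Sprague Dawley and Fischer did not pass (0.06 ± 0.02, adjusted p = 0.0508). For Dcx no pair passed, with 9.41 ± 0.15, 9.46 ± 0.09 and 9.45 ± 0.07 (SD) in Fischer, Long Evans and Sprague Dawley.

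Among stem and proliferation genes, Sox2 was lower in Sprague Dawley than in Fischer by -0.08 ± 0.03 (adjusted p = 0.0294, limma) and than in Long Evans by -0.11 ± 0.03 (0.0013). Nes was lower than in Fischer by -0.09 ± 0.03 in both Long Evans (0.0196) and Sprague Dawley (0.0185), though not with the upper label numbers alone (-0.06, adjusted p = 0.2769, and -0.05, 0.4052). Top2a was higher in Sprague Dawley, by 0.09 ± 0.03 against Fischer (0.0042) and 0.06 ± 0.03 against Long Evans (0.0362). The last call was lost without Long Evans female control 1, Sprague Dawley female control 2 or 4, or Sprague Dawley male control 1, at 0.06 each time (highest adjusted p = 0.0580). Igfbpl1 was lower in Long Evans than in Fischer by -0.16 ± 0.06 (0.0225). Without the 8 arrays that went against their sex label, 8 of 21 values passed, and the share over all probe sets was not counted in that fit. Igfbpl1 (adjusted p = 0.0552) and Nes (0.0563) in Long Evans minus Fischer, Sox2 in Sprague Dawley minus Fischer (0.0671) and Top2a in Sprague Dawley minus Long Evans (0.0791) lost their call, while Igfbpl1 in Sprague Dawley minus Fischer gained one (0.0306).

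The strain values also depended on the label-number set for some genes. Neurod1 was lower in Sprague Dawley in both sets, by -0.18 (adjusted p = 6.63e-04, limma) and -0.29 (1.19e-06) against Fischer, and by -0.12 (0.0220) and -0.34 (9.61e-08) against Long Evans, for lower and upper numbers. Sox11 in Long Evans minus Fischer was 0.06 (0.11) with the lower and 0.20 (4.48e-06) with the upper numbers. For Dcx and Sox2 the direction changed. Dcx in Sprague Dawley minus Fischer was -0.12 (2.19e-05) with the lower and 0.20 (6.91e-08) with the upper numbers, and in Long Evans minus Fischer -0.08 (0.0022) and 0.19 (6.52e-08). Sox2 in Long Evans minus Fischer was 0.18 (0.0017) and -0.12 (1.38e-04), and in Sprague Dawley minus Fischer 0.09 (0.12) and -0.25 (6.18e-10). Other calls did not pass within a set, each of which holds fewer arrays. In Long Evans minus Fischer, Nes was -0.12 (0.0660) with the lower numbers, and Igfbpl1 was -0.14 (0.2167) with the lower and -0.17 (0.1195) with the upper numbers. Nes in Sprague Dawley minus Fischer passed with the lower numbers (-0.15, 0.0217). Top2a in Sprague Dawley minus Fischer passed with the lower (0.12, 0.0141) and not with the upper numbers (0.07, 0.1075), and against Long Evans it passed in neither (0.09, 0.0692, and 0.05, 0.2948). Sox2 in Sprague Dawley minus Long Evans was -0.09 (0.1066) and -0.13 (8.87e-05), and Sox11 in that pair -0.08 (0.0153) and -0.05 (0.1676). The averaged differences of Dcx and Sox2 from Fischer therefore describe neither set.

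Inside Fischer these sets differed most in Dcx. The 20 arrays with lower numbers lay between 9.42 and 9.64, and the 20 with upper numbers between 9.13 and 9.41. The sets did not overlap, and in 10 of 10 groups both upper values were below both lower values. The means were 9.53 ± 0.06 and 9.28 ± 0.08 (SD, n = 20 each), a difference of -0.25 ± 0.03 (SE, adjusted p = 1.86e-10, limma). In Fischer controls, for example, Dcx was 9.58 and 9.49 in males with lower and 9.35 and 9.31 with upper numbers, and 9.45, 9.42, 9.31 and 9.26 in females in the same order. Sox2 went the other way, from 9.40 ± 0.14 to 9.62 ± 0.10 (0.22 ± 0.04, adjusted p = 5.63e-06), with both upper values above both lower values in 8 of 10 groups. Sox11 was lower with the upper numbers, 8.73 ± 0.10 against 8.86 ± 0.11 (-0.13 ± 0.03, adjusted p = 6.78e-04). These were 3 of 7 members, where 60.9% of all probe sets were called.

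In Sprague Dawley the upper numbers had higher Dcx (0.06 ± 0.02, adjusted p = 0.0481, limma), lower Neurod1 (-0.14 ± 0.05, 0.0420) and lower Sox2 (-0.12 ± 0.03, 0.0022), 3 of 7 where 18.9% of all probe sets were called. The Dcx call was lost on leaving out any of 25 of the 39 rats (highest adjusted p = 0.1278) and the Neurod1 call on leaving out any of 24 (0.0754). In Long Evans 0 of 7 passed (2 unadjusted, Neurod1 and Sox2), beside 0.0993% of all probe sets. The difference of these set values between strains was tested as well, a comparison added after the data were seen. For Dcx it was 0.28 ± 0.04 in Long Evans minus Fischer (adjusted p = 3.71e-10) and 0.32 ± 0.04 in Sprague Dawley minus Fischer (2.39e-12). For Sox2 it was -0.30 ± 0.05 (2.70e-07) and -0.34 ± 0.05 (1.08e-08), and for Sox11 0.14 ± 0.04 (0.0059) and 0.17 ± 0.04 (5.80e-04). Neurod1 differed in Sprague Dawley minus Long Evans, by -0.22 ± 0.06 (0.0083). Over all probe sets 43.3%, 55.3% and 10.5% were called for Long Evans minus Fischer, Sprague Dawley minus Fischer and Sprague Dawley minus Long Evans.

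**Figure D3:**
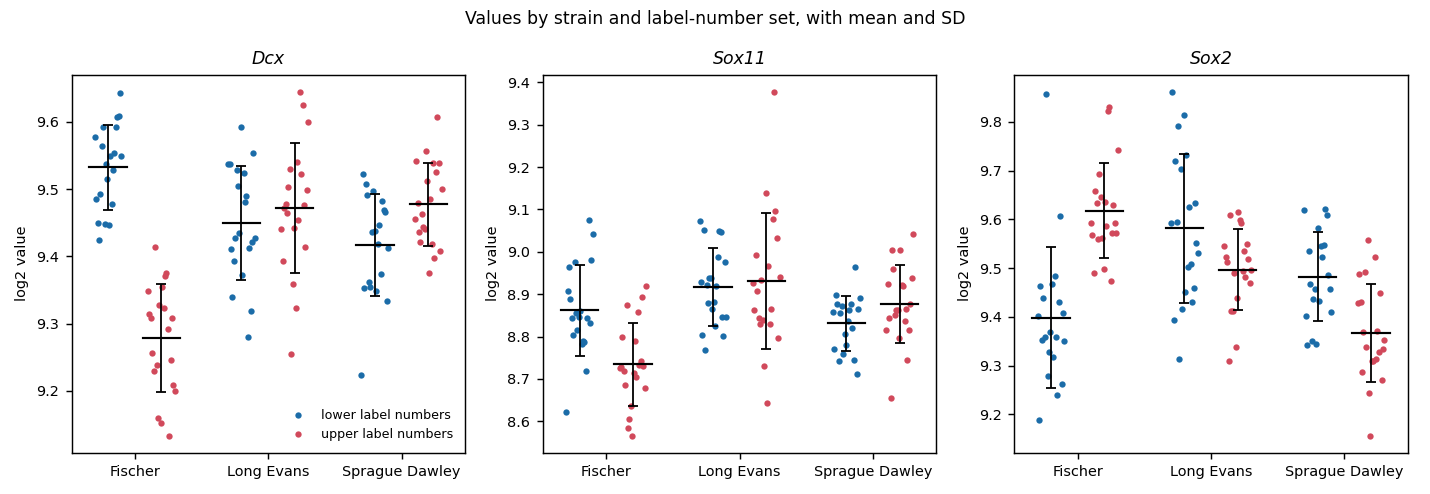
Log2 values of Dcx, Sox11 and Sox2 by strain, parted into arrays with lower and upper label numbers. Points are arrays, and bars are the mean and SD of a set. The Fischer Dcx sets do not overlap, and Sox2 is higher with the upper numbers in Fischer and lower with them in Sprague Dawley.

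Other cell type lists moved with the Fischer sets. Of 9 astrocyte genes 8 were called higher with the upper numbers (median 0.22), where 60.9% of all probe sets were called in either direction. The list mean ran from 11.33 to 11.42 with the lower and from 11.49 to 11.63 with the upper numbers. All 8 meningeal genes were called lower (median -0.36), with list means from 8.67 to 9.66 and from 8.37 to 9.20. The median of all probe sets was -0.07. In Sprague Dawley 5 of the 9 astrocyte genes were lower with the upper numbers (median -0.06), where Sox2 was lower as well and 18.9% of all probe sets were called. In Long Evans, where Sox2 was not called, its mean was 9.58 with the lower and 9.50 with the upper numbers. The astrocyte list there went the other way, with means of 11.36 and 11.39. The part of these cells in the Dcx and Sox2 values was not tested. Each group held lower and upper numbers alike, apart from the Sprague Dawley male controls. With the set as a block the Fischer lead difference of Dcx was still 0.01, and its SE was 0.03 in place of 0.06.

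Of the spread over all arrays, label-number sets within strain held 47.7% of the sum of squares for Dcx and 27.7% for Sox2, and 10.3% or less for the other 5 genes. Strain held 37.4% for Neurod1, 17.8% for Sox11 and 4.69% for Dcx. Treatment within strain held from 1.55% for Dcx to 22.2% for Top2a, where its 12 degrees of freedom make up 10.2% of the total. Arrays within these groups held 70.7% for Igfbpl1 and 68.9% for Nes, near the 72.9% of the degrees of freedom that lie there. Strain has 1.69% of the degrees of freedom and label-number sets within strain 2.54%.

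**Figure D4:**
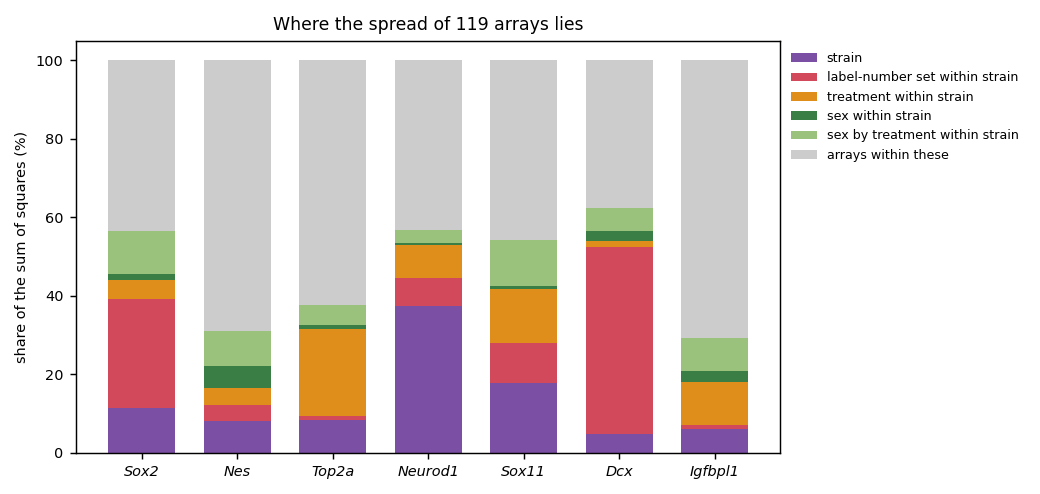
Share of the sum of squares over all arrays (%) for each gene, split into strain, label-number set, treatment, sex, sex by treatment and the rest. Strain is the largest named part for Neurod1 at 37.4%, the label-number set for Dcx at 47.7% and treatment for Top2a at 22.2%.

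Igfbpl1 followed the choroid plexus markers from array to array. Of the 12 genes of that list, which include Ttr, Folr1, Kl and Otx2, 11 were measured. Their mean ran from 7.06 to 10.61 in Fischer, from 7.03 to 10.69 in Long Evans and from 7.14 to 10.55 in Sprague Dawley. In the 40 arrays with the lowest list mean Igfbpl1 had a median of 6.97 (6.58 to 7.22). In the 39 middle arrays it was 7.20 (6.79 to 7.51), and in the 40 highest 7.50 (7.15 to 8.09). The lowest and highest of these sets overlap only between 7.15 and 7.22. The highest Igfbpl1 value, 8.09, came from a Fischer female at perinatal 750 ppm, replicate 4, with transthyretin (Ttr) at 13.75. The lowest, 6.58, came from Sprague Dawley female control 1, with Ttr at 11.10. That was not the lowest Ttr, which was 8.02 in a Long Evans male at perinatal 750 ppm, replicate 1, with Igfbpl1 at 7.22.

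As a description over all arrays, which share both measures, r was 0.802 and rho 0.831. Over deviations from the mean of each group and label-number set r was 0.859. Almost all of the 60 means came from 2 arrays, whose deviations mirror each other, which leaves 59 residual degrees of freedom. Leaving out the 2 arrays farthest from the median of the list gave 0.857. The deviations were taken before that step, so this value is no test of outlying arrays. Within strains r over deviations was 0.904 in Fischer, 0.800 in Long Evans and 0.891 in Sprague Dawley. For ependymal genes it was 0.722 and for meningeal genes 0.590. Dcx had r = -0.447 with the choroid plexus list, and the other 5 genes lay between -0.24 and 0.05. With the list as a covariate, added after the data were seen, Igfbpl1 in Long Evans minus Fischer was -0.10 ± 0.04 (adjusted p = 0.0121, limma) and in Sprague Dawley minus Fischer -0.11 ± 0.04 (0.0152).

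**Figure D5:**
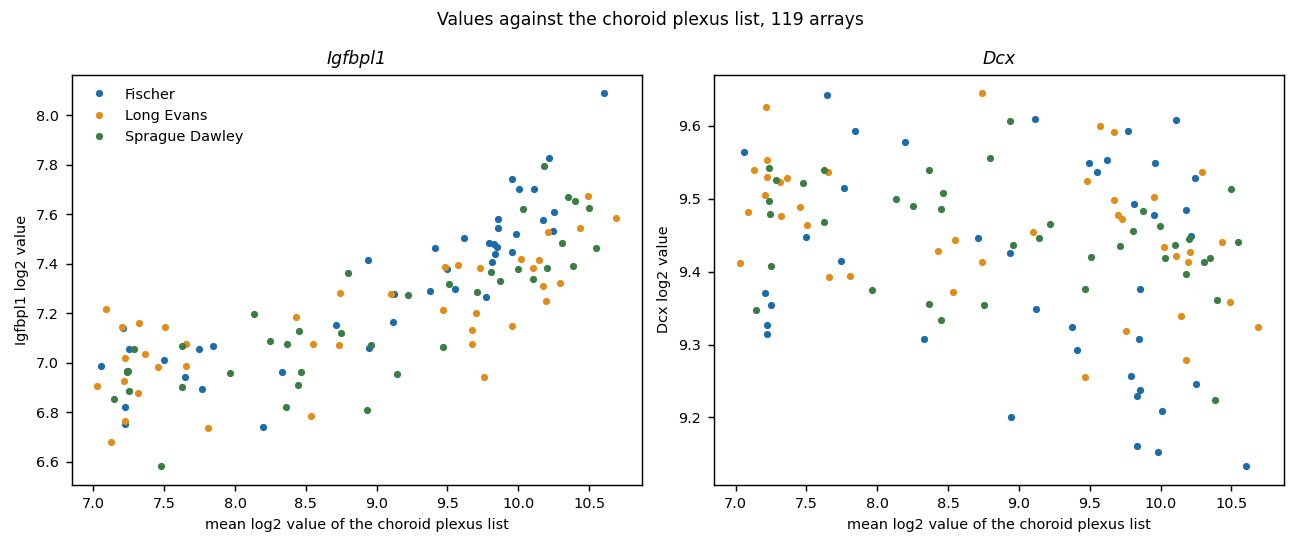
Log2 values of Igfbpl1 (left) and Dcx (right) against the mean log2 value of 11 choroid plexus genes. Points are the arrays of all rats, coloured by strain. Igfbpl1 is higher where the list is higher in all strains, and Dcx shows a weaker slope downward.

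Related genes were taken from lists of stem and progenitor genes (13 of 18 found), immature neuron genes (21 of 22) and cell cycle genes (30 of 34, on 33 probe sets). None of their probe sets was called in the mean lead effect of any strain (limma). At an unadjusted p under 0.05 there were 2, 1 and 2 stem genes in Fischer, Long Evans and Sprague Dawley, 1, 2 and 1 immature neuron genes, and 1, 3 and 3 cell cycle probe sets. The medians for Fischer were -0.02, -0.02 and -0.03, those for Long Evans 0.02, 0.00 and 0.03, and those for Sprague Dawley 0.02, 0.01 and 0.03, beside 0.00 for all probe sets. In the strain difference of the lead effect, Long Evans minus Fischer, the lysophosphatidic acid receptor Lpar1 was the only stem list gene called (0.31 ± 0.06 SE, adjusted p = 0.0120), beside 0.13% of all probe sets. In the same contrast all 9 oligodendrocyte precursor genes measured were positive (median 0.17, beside 0.00 for all probe sets), with 7 at an unadjusted p under 0.05 and 2 called. The part of those cells in the Lpar1 value was not tested.

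Between strains, averaged over groups, Long Evans minus Fischer had 4 stem genes higher and 5 lower, 9 immature neuron genes higher and 4 lower, and 13 cell cycle probe sets higher and 5 lower. With 61.2% of all probe sets called in this pair, these counts show nothing particular to the lists. The stem list was led by Msi1, an RNA-binding protein of progenitors (0.29), and Thrsp, a lipogenesis regulator (-0.54 ± 0.04 SE, adjusted p = 1.64e-24, limma). Hes1, a Notch target, was lower too (-0.27). Sox4, a relative of Sox11, was higher in Long Evans by 0.32, and St8sia2, which adds polysialic acid to NCAM, by 0.32. Of the same list Tubb2b (-0.24) and Elavl2 (-0.16) were lower. Aurkb, a mitotic kinase, was higher by 0.64 ± 0.05, and Ccne2, a G1/S cyclin, by 0.35, while Tyms (-0.20) and Aurka (-0.08) of the cell cycle list were lower.

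Sprague Dawley minus Long Evans had 5 stem genes higher and 2 lower, 4 immature neuron genes higher and 8 lower, and 5 cell cycle probe sets higher and 10 lower, where 62.2% of all probe sets were called. Neurod2, a paralog of Neurod1, was lower by -0.50 ± 0.03 (SE, adjusted p = 1.70e-24, limma), Sox4 by -0.35 and Aurkb by -0.97 ± 0.05 (8.50e-32). Calretinin (Calb2), carried by immature granule cells and interneurons, was higher by 0.37. The cell cycle genes Birc5 (0.10) and Kif23 (0.09) were higher too, and Ccne2 was lower (-0.45). Tubb2b of the immature neuron list was higher by 0.15. Of the stem list Thrsp (0.36) and Hes5 (0.18) were higher, and Hopx (-0.18) and Msi1 (-0.14) lower. Sprague Dawley minus Fischer had 5 and 4, 8 and 6, and 7 and 5 in the same order, where 40.7% of all probe sets were called. There Prox1, the granule cell identity factor, was lower by -0.24 ± 0.03 (1.65e-09) and Neurod2 by -0.29 ± 0.03 (5.47e-12), beside the lower Neurod1. Calb2 was higher by 0.49 ± 0.06 (1.75e-11) and St8sia2 by 0.20. Of the stem list Lpar1 (0.15) and Msi1 (0.15) were higher, and Hes1 (-0.19) and Thrsp (-0.18) lower. Of the cell cycle list Mcm6 (0.19) and Prc1 (0.17) were higher, and Aurkb (-0.33) and Bub1 (-0.23) lower. Of the 5 dentate granule genes measured, 1 was higher and 3 were lower, and of 5 CA1 pyramidal genes also 1 and 3, in lists too small to set against that 40.7%. Prox1 stands in both the immature neuron and the granule list. The part of granule cell content in the Neurod1 difference was not tested.

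Genes with the most similar pattern were taken by Pearson's r over the deviations of all arrays from the mean of their group and label-number set, all from the same arrays. These deviations have 59 residual degrees of freedom. Each nearest gene was picked as the highest of all other probe sets with 1 symbol, which favours high values. The median absolute r over those probe sets was 0.099 to 0.159. For Dcx the nearest genes were Nell1 (0.561), Hspa12a (0.546), Tenm2 (0.538), Slit1 (0.530) and Dph7 (0.523). In the same order these were 0.341, 0.351, 0.440, 0.364 and 0.688 with the lower label numbers alone. With the upper numbers they were 0.686, 0.645, 0.593, 0.699 and 0.412. The nearest gene was Acvr1 for Neurod1 (0.691), Cbln1 for Sox11 (0.547), Cebpd for Top2a (0.537), Kctd15 for Sox2 (0.598) and Got1l1 for Nes (0.650). Igfbpl1 had the closest companion, Mdfic, at 0.898. Among the 21 pairs of the 7 genes the values ran from -0.388 for Dcx and Igfbpl1 (-0.514 in Fischer) to 0.273 for Top2a and Sox2. Neurod1 and Igfbpl1 had -0.286, and Sox11 and Sox2 had 0.228. Dcx and Neurod1 had 0.210, with 0.061 in Fischer, -0.035 in Long Evans and 0.689 in Sprague Dawley. Top2a had 0.501 with the mean of the cell cycle list, and Sox2 had 0.452 with that of the stem list. For Sox2 the oligodendrocyte precursor (0.375), endothelial (0.363), microglia (0.360), astrocyte (0.359) and immature neuron (0.335) lists followed close together.

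Eomes, the factor of intermediate progenitors, could not be read apart from Golga4, a Golgi protein gene. Their shared probe set had group means from 7.81 to 7.99. In Long Evans its lead difference was 0.07 ± 0.03 (SE, adjusted p = 0.4949, limma), and its highest group mean was that of Long Evans females at perinatal 250 ppm.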

How the data were processed

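Hippocampal RNA was measured on Affymetrix Rat Gene 1.0 ST arrays. The deposited values are log2 intensities per probe set, made by the authors with RMA and Partek, per the submitters' processing notes. Versions and any batch correction are not given in the sources used here. Groups were read from the labels. Of 29214 probe sets 15310 carried 1 gene symbol, 323 several and 13581 none. Group means were fitted in limma 3.58.1 (in R 4.3.3, tables read through data.table at version 1.17.8), two-sided, with Benjamini-Hochberg adjustment over all probe sets of a contrast and calls at an adjusted p under 0.05. Lead, sex, dose, period and label-number contrasts used 1 fit per strain, and strain contrasts 1 fit of all arrays. Errors beside differences are SEs. The code was tested on simulated data. Figures used matplotlib 3.10.9. All measured members were named, and of each related list the 2 highest and 2 lowest called genes per strain contrast, of which some are left out of the text. Likeness named 5 genes for Dcx and 1 for each other member. The members and lists were chosen with earlier results of these data known. Alternatives were array weights, quantile normalization, a filter that kept mean levels above the 40th percentile, 1 fit of all strains for the lead effect, the label-number block and sets, arrays against their sex label left out, a choroid plexus covariate, and leaving out each animal.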

Additional observations from a re-analysis of the deposited data

Results flagged for a closer look

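Of 203 sets of 4 rats (a gene in a group), 7 had an animal far from the others, and chance gives about 1 in 20. Dcx was 9.26 in Long Evans female perinatal 250 ppm replicate 4, where the others lay from 9.50 to 9.53. Sox11 was 9.38 in Long Evans female perinatal 750 ppm replicate 4, above 9.05 to 9.08. Neurod1 was 10.89 in Fischer male postnatal 750 ppm replicate 4, above 10.18 to 10.28. Igfbpl1 was 7.83 in Fischer female control replicate 1, above 7.41 to 7.48. Sox2 was 9.26 in Fischer male postnatal 750 ppm replicate 2, below 9.59 to 9.63, and 9.31 in Sprague Dawley male perinatal 750 ppm replicate 4, below 9.52 to 9.55. The latter array also went against its sex label. Nes was 7.12 in Long Evans male control replicate 2, above 6.72 to 6.77.

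The difference between upper and lower label numbers itself differed between strains (interaction in limma). Against Fischer, Long Evans differed by 0.28 for Dcx, 0.14 for Sox11 and -0.30 for Sox2, and Sprague Dawley by 0.32, 0.17 and -0.34. Neurod1 differed by -0.22 in Sprague Dawley minus Long Evans. Of all probe sets 43.3% were called in Long Evans minus Fischer, 55.3% in Sprague Dawley minus Fischer and 10.5% in Sprague Dawley minus Long Evans. Nothing particular to these genes is read from the calls.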

How the results depend on the processing

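No paired analysis was possible because the labels pair no animal with an animal of another group. The label-number set could be fitted as a block, and then 3 of 21 strain values were called in controls and 13 of 21 over all groups. The number of calls among strain values was 2 to 4 for controls and 8 to 13 over all groups under the settings tried. In the main fit 10.5% to 25.1% of all probe sets were called per pair in controls, and 40.7% to 62.2% over all groups. Shares over all probe sets were not counted under the other settings, so nothing particular to the members is read from these counts. In the lead contrasts every setting left 0 members called. Leaving out animals gave 0 to 1 members called for dose in Fischer, and 1 to 3 between label-number sets in Sprague Dawley, where Dcx also lost its call without arrays against their sex label (adjusted p = 0.1736, limma) or with array weights (0.0522). Quantile normalization ended the calls of Sox2 in Sprague Dawley minus Fischer and of Sox11 and Top2a in Sprague Dawley minus Long Evans. Array weights also ended that Top2a call (adjusted p = 0.0838, limma). In controls only, Neurod1 in Sprague Dawley minus Fischer did not pass with upper numbers alone (-0.22, adjusted p = 0.1194). Sox11 in Long Evans minus Fischer controls passed in neither set, at 0.12 (adjusted p = 0.2354, limma) with the lower and 0.18 (0.0688) with the upper numbers. For all strain fits only controls were left out in turn. Nes and Top2a lay under the 40th percentile and have no value there.

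The following values turned their direction. With lower numbers alone, Sox2 in Sprague Dawley minus Fischer was 0.0911, and lead differences were -0.1085 for Igfbpl1 in Fischer, -0.0084 for Dcx and 0.0068 for Igfbpl1 in Long Evans, and -0.0178 for Sox11 in Sprague Dawley. With upper numbers alone they were -0.0360 for Dcx, -0.0104 for Sox11 and 0.0257 for Nes in Fischer, 0.0115 for Sox11 and 0.0307 for Sox2 in Long Evans, and -8.00e-04 for Dcx and -0.1176 for Neurod1 in Sprague Dawley. Array weights gave -0.0104 for Sox11 in Fischer, and -7.00e-04 for Dcx and 0.0046 for Sox2 in Sprague Dawley. Neurod1 in Sprague Dawley was -0.0394 without arrays against their sex label, and Igfbpl1 in Long Evans 0.0298 with the choroid plexus covariate. Leaving out each animal gave, in Fischer, Dcx -0.0074 to 0.0364, Sox11 -0.0157 to 0.0319, Igfbpl1 -0.0535 to 0.0860 and Nes -0.0558 to 0.0117. In Long Evans it gave Dcx -0.0023 to 0.0220, Igfbpl1 -0.0941 to 0.0403 and Sox2 -0.0516 to 0.0170. In Sprague Dawley it gave Dcx -0.0209 to 0.0584, Neurod1 -0.0246 to 0.0719, Top2a -0.0223 to 0.0442 and Sox2 -0.0373 to 0.0106. The causes were not tested.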
